A study of Homo sapiens and Mus musculus with 69 samples.

Results

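*RPL22* and *RPL22L1* encode a pair of paralogous proteins of the large ribosomal subunit. They were followed through bulk RNA-Seq of 69 libraries, of which 60 were from 4 human small cell lung cancer lines and 9 from the mouse line KP1. The pair was selected on 1 measured pattern, the fall of *RPL22* to 0 in the 3 COR-L88 libraries labelled *STING* KO and kept in DMSO, so that contrast is described here without a test. The members are 2 of the 20516 genes in the human table and 2 (*Rpl22* and *Rpl22l1*) of the 18501 genes in the KP1 table. Each group held 3 libraries. H82 contributed 7 groups, which were parental cells, cells with a doxycycline-inducible *NOTCH1* vector without and with doxycycline, and the same pair of conditions in *NOTCH1* vector cells labelled *REST* KO or *STING* KO. H524 contributed 5 groups, namely parental cells and cells with an inducible *NOTCH1* or *REST* vector, each without and with doxycycline. H69 contributed 3 groups, namely parental cells and *NOTCH1* vector cells without and with doxycycline. COR-L88 contributed 5 groups, namely DMSO, TAS1440 (an inhibitor of the histone demethylase LSD1) and TAS1440 plus GSI (a gamma-secretase inhibitor, which blocks Notch activation), and DMSO or TAS1440 in cells labelled *STING* KO. KP1, a line from a mouse tumor model lacking *Rb1* and *Trp53*, contributed 3 groups, namely DMSO, TAS1440 and TAS1440 plus GSI. The study used a different GSI compound in KP1 than in COR-L88, and TAS1440 treatment was long-term in both lines. The *NOTCH1* vector is lentiviral and carries the human intracellular domain (N1ICD), and doxycycline treatment was long-term. In overexpression experiments the study took adherent cells after doxycycline, and the labels do not say how cells without doxycycline grew. The part of attachment in the doxycycline differences was not tested. Each KO was made with CRISPR-Cas9 and a single target sequence. The study shows KO clones grown from single cells for H82 *REST* KO and for *STING1* KO in H82 and COR-L88. The labels do not say whether the libraries of a KO group came from a single clone or from several. The labels do not say whether libraries of a group came from separate cultures, so the spread between them may be technical.

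Ribosomes take up either RPL22 or its paralog, and both proteins also bind RNA outside the ribosome. RPL22 is best known as a partner of small viral RNAs in infected B cells and as a protein needed for the development of T cells. In mouse tissue it has been described to hold down the RNA of its own paralog, so that *Rpl22l1* rises where *Rpl22* is lost. *RPL22* is therefore read here side by side with *RPL22L1* and with the other ribosomal protein genes.

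In the GRCh37 annotation *RPL22* (ENSG00000116251) lies on the minus strand of chromosome 1 from 6245080 to 6269449, and its start overlaps *RNF207* on the plus strand (6265535 to 6281359). *RPL22L1* (ENSG00000163584) lies on the minus strand of chromosome 3 from 170582664 to 170587997. Both coding sequences run over 4 coding exons, with 387 and 369 bases. In an alignment of 363 bases, 254 were identical (70.0%), and the longest run shared without a mismatch was 17 bases. The stretch of 150 coding bases around that run is printed for each gene, from the GENCODE transcripts on GRCh37, because it holds the longest exact match of the paralogs. The run is in capitals.

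RPL22: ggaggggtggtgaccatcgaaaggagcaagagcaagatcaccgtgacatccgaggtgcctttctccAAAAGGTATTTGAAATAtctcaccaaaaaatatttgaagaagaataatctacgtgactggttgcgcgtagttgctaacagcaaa
RPL22L1: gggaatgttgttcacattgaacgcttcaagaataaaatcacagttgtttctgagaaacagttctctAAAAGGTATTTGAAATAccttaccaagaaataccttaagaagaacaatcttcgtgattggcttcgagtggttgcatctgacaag

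No longer exact match exists between the coding parts. Every annotated pseudogene of *RPL22* matched it at a higher share of aligned bases than the paralog did (70.0%), the lowest only just. Of 22 annotated *RPL22* pseudogenes, 16 matched its coding sequence at 90% or more of the aligned bases (range 70.4% to 98.4%), and none has a row in the human table. The mouse paralogs were as far apart (70.2% identity), whereas human and mouse *RPL22* shared 88.9% and human and mouse *RPL22L1* 93.0% of coding bases.

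The targeted genes were read as a check of the labels. *NOTCH1* RNA was higher with doxycycline than without in every *NOTCH1* vector line, by 3.70 (H82), 8.23 (H82 *REST* KO), 5.02 (H82 labelled *STING* KO), 6.86 (H524) and 7.60 (H69) on the log2 scale. Without doxycycline it was 1.45, 0.88 and 1.15 in H82 vector cells and 0.04, 0.01 and 0.01 in parental ones. H524 vector cells had 0.79, 1.28 and 1.52 against 0.24, 0.23 and 0.73. H69 went the other way, with 0.38, 0.39 and 0.39 against 0.58, 0.62 and 0.58. The part of these baseline levels in the vector comparisons was not tested. *REST* with doxycycline was 6.48, 6.13 and 6.33 in intact H82 cells and 4.95, 4.95 and 5.89 in *REST* KO cells (-1.05 ± 0.22, adjusted *P* = 0.00114), the difference without doxycycline did not pass the test (-0.53 ± 0.22, 0.113), and the *REST* vector of H524 raised it from 5.05, 5.03 and 4.90 to 6.87, 10.72 and 9.43. *TMEM173* (the symbol of *STING1* in this table) was 2.54, 2.04 and 2.03 in COR-L88 with TAS1440 and 1.16, 1.09 and 0.96 with TAS1440 in cells labelled *STING* KO. With DMSO it was 0.24, 0.41 and 0.20 in intact COR-L88 cells. In DMSO cells labelled *STING* KO it was 0.12, 0.36 and 0.10, overlapping and near the floor, so RNA did not mark the KO there. In H82 without doxycycline it was 0.04, 0 and 0 in intact *NOTCH1* vector cells and 0.55, 0.52 and 0.11 in those labelled *STING* KO. In H82 with doxycycline it was 1.07, 1.17 and 1.10 in intact cells and 1.27, 1.53 and 2.04 in cells labelled *STING* KO, so RNA did not mark that KO (0.50 higher, adjusted *P* = 0.0361), and these samples are called libraries labelled *STING* KO. The study checked *STING1* KO clones of H82 and COR-L88 by immunoblot, and RNA levels do not report on the protein. The relative size of the human libraries, read from the steps between the lowest values, ranged from 0.697 to 1.53 times the median, and read counts are not known. All values are log2(RPKM + 1) as deposited, a scale that understates changes of low genes, and differences were tested with limma across all genes with Benjamini-Hochberg adjustment, a call meaning an adjusted *P* under 0.05. In bulk libraries fewer cells with a transcript and less RNA per cell cannot be told apart. The gene with the highest median RPKM of the human table was *TIMM44*, a mitochondrial import protein, while the ribosomal protein gene *RPS9* ranked 6346, so levels are compared between libraries for 1 gene and never between genes. Markers of leukocytes (3 genes) summed to at most 0.38 in every human library.

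*RPL22* separated the lines before any treatment. Parental H82 cells had *RPL22* values of 11.71, 11.42 and 11.09. Parental H524 cells had 10.72, 11.52 and 10.37. Parental H69 cells had 8.91, 9.07 and 8.89. COR-L88 cells in DMSO had 5.78, 5.52 and 5.50, below every library of the other lines, which had mean RPKM values of 2757 (H82), 1979 (H524) and 496 (H69) against 47.7. The difference to COR-L88 was 5.81 ± 0.26 (SE) for H82 (adjusted *P* = 5.54e-09), 5.27 ± 0.26 for H524 (1.40e-08) and 3.36 ± 0.26 for H69 (6.34e-07), on the log2 scale. The share of all genes called in these comparisons was 64.3%, 59.1% and 57.0%. H82 was higher than H69 by 2.45 (adjusted *P* = 6.14e-06, 68.8% of genes called) and H524 than H69 by 1.91 (7.18e-05, 58.0% called). H82 and H524 did not pass the test (0.54 ± 0.26, adjusted *P* = 0.101, 56.3% called), and their libraries overlapped.

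*RPL22L1* had the opposite order at its upper end. COR-L88 cells in DMSO had values of 5.64, 5.18 and 5.65, above every parental library of the other lines. Parental H82 cells had 4.75, 3.86 and 4.03, parental H524 cells 3.46, 5.09 and 3.01, and parental H69 cells 2.01, 2.27 and 2.30. *RPL22L1* was lower than in COR-L88 by 1.28 ± 0.44 in H82 (adjusted *P* = 0.0234), by 1.64 ± 0.44 in H524 (0.00721) and by 3.30 ± 0.44 in H69 (5.45e-05). The call for H82 rested on all libraries, since leaving out parental replicate 2 or 3, or DMSO replicate 1 or 3, gave adjusted *P* values of 0.0653 to 0.0793. H69 was also below H82 by 2.02 (adjusted *P* = 0.00154) and below H524 by 1.66 (0.00696), while H82 and H524 did not pass the test (0.36 ± 0.44, adjusted *P* = 0.514).

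**Figure D1:**
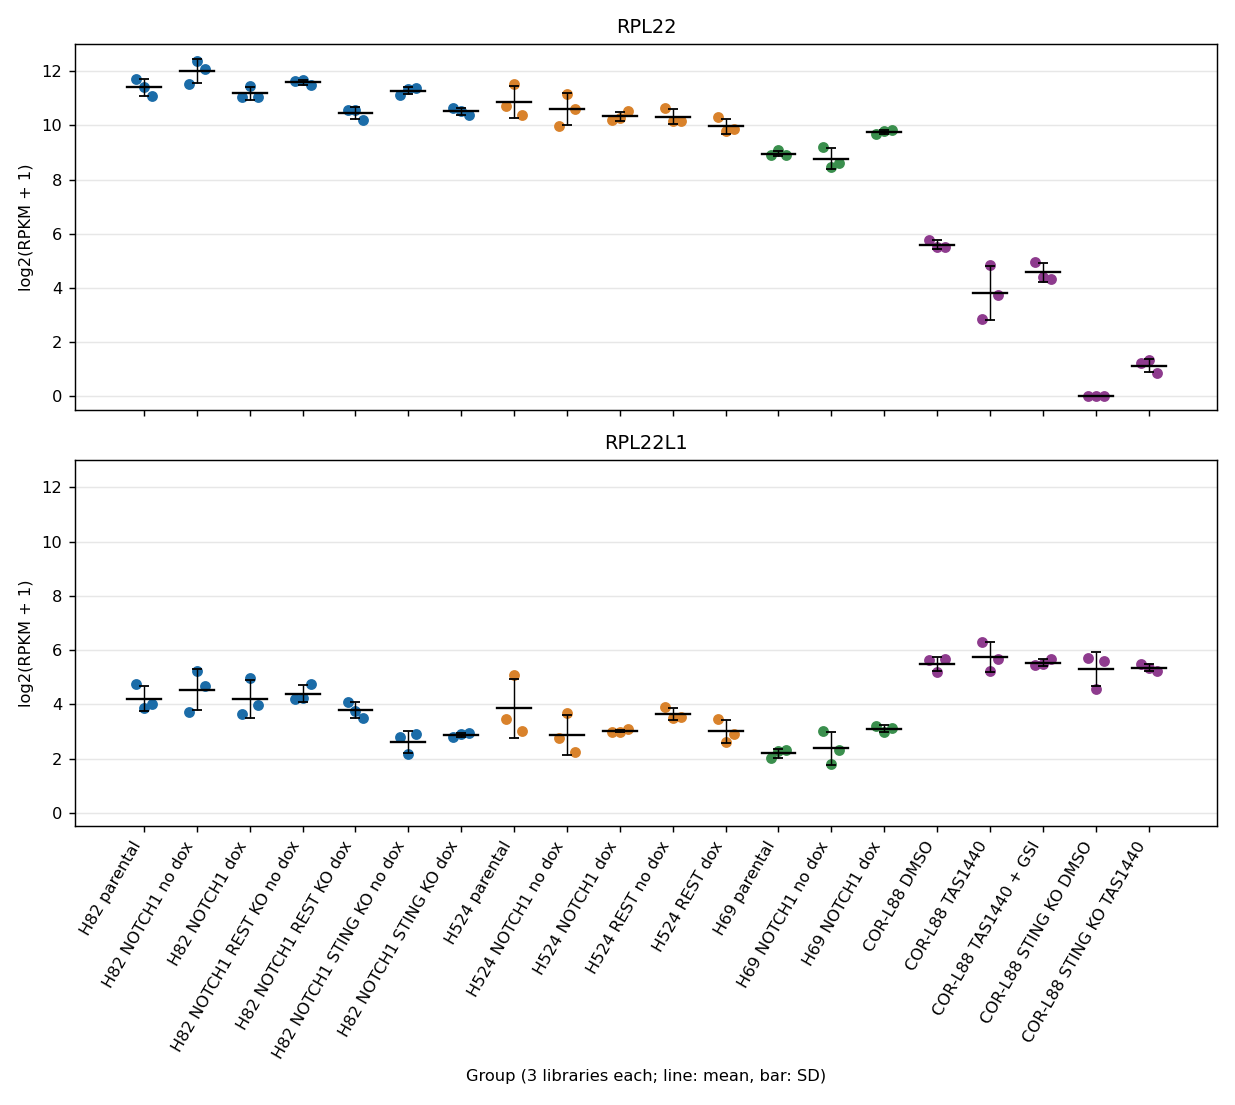
Values of *RPL22* (top) and *RPL22L1* (bottom) as log2(RPKM + 1) in the 20 human groups, colored by cell line; points are the 3 libraries, lines the mean and bars the SD. All 15 COR-L88 libraries lie below the other lines for *RPL22*, with 3 at 0, and *RPL22L1* stays between 4.57 and 6.31 in COR-L88.

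Across all 45 libraries of H82, H524 and H69, *RPL22* ranged from 8.47 to 12.38, and across the 9 COR-L88 libraries with intact *STING* from 2.85 to 5.78. The highest of the 20 group means was that of H82 *NOTCH1* vector cells without doxycycline (12.00 ± 0.43, SD), followed by further H82 and H524 groups, then the H69 groups and then COR-L88. Of the 19 steps between neighbours in this order, 14 joined groups whose libraries overlapped. The 5 steps without overlap were between H69 *NOTCH1* cells with doxycycline (9.76 ± 0.08) and H69 parental cells (8.96 ± 0.10), between H69 cells without doxycycline (8.76 ± 0.38) and COR-L88 in DMSO (5.60 ± 0.15), between that group and TAS1440 plus GSI (4.58 ± 0.34), between TAS1440 (3.81 ± 1.00) and TAS1440 in cells labelled *STING* KO (1.14 ± 0.25), and between the latter and DMSO in cells labelled *STING* KO (0). For *RPL22L1* the 5 COR-L88 groups took the highest 5 places, with means from 5.30 to 5.74, and 18 of 19 neighbouring groups overlapped.

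Within COR-L88, *RPL22* was listed at 0 in all 3 DMSO libraries labelled *STING* KO, against 5.78, 5.52 and 5.50 in intact cells. *RPL22L1* in the same libraries was 5.71, 4.57 and 5.62 against 5.64, 5.18 and 5.65, a mean difference of -0.20 with overlapping groups. None of the other 78 ribosomal protein genes was listed at 0 in any COR-L88 library, and their median difference between these groups was 0.15. The relative sizes of the 3 libraries labelled *STING* KO (0.841 to 0.901) lay within those of the DMSO libraries (0.801 to 1.17). Of 6923 genes that reached 3 in each of the intact DMSO libraries, 4 were listed at 0 in all 3 libraries labelled *STING* KO, namely *RPL22*, *KCNAB2* (a potassium channel beta subunit), *SLFN13* (a nuclease of the Schlafen family) and *ERCC6L* (a DNA translocase of the mitotic spindle). No gene met the rule the other way round, among 6794 that reached 3 in each library labelled *STING* KO. These values chose the members and carry no test.

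The TAS1440 libraries did not enter that choice, but those labelled *STING* KO carry the same KO label as the libraries that did. Their comparison with intact cells is therefore not independent of the choice. With TAS1440, *RPL22* was 2.85, 4.84 and 3.75 in intact cells and 1.22, 1.33 and 0.86 in cells labelled *STING* KO, without overlap. The difference was -2.68 ± 0.38 (SE, adjusted *P* = 0.000879), in a comparison that called 28.6% of all genes, and it stayed past the threshold in all leave-one-out fits (-3.16 to -2.16). *RPL22L1* was 6.31, 5.22 and 5.69 in intact cells and 5.48, 5.33 and 5.24 in cells labelled *STING* KO, a difference of -0.39 ± 0.23 that did not pass the test (adjusted *P* = 0.219) except without intact replicate 2 (-0.65, 0.0408). Compared with 0 in all DMSO libraries labelled *STING* KO, the 3 values near 1 under TAS1440 amount to a mean RPKM of 1.22. Whether reads from pseudogenes were counted for *RPL22* in these libraries was not tested.

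TAS1440 lowered *RPL22* in intact cells. The fall from DMSO was -1.79 ± 0.38 (SE, adjusted *P* = 0.00188, 59.2% of all genes called), and no TAS1440 library reached the DMSO libraries. Leaving out each library in turn gave -2.30 to -1.30, always past the threshold. With TAS1440 plus GSI *RPL22* was 4.96, 4.42 and 4.35, between the other groups, and neither difference passed the test (-1.02 ± 0.38 against DMSO, adjusted *P* = 0.0738, 25.0% called; TAS1440 against TAS1440 plus GSI -0.76 ± 0.38, adjusted *P* = 0.119, 49.2% called). The difference to DMSO passed it where the model held only the groups compared (adjusted *P* = 0.00417). With the DMSO libraries labelled *STING* KO in the model the adjusted *P* was 0.0496, but those libraries chose the pair. Their values, all at 0, have no spread and shrink the pooled spread, so that *P* carries no weight. The difference to TAS1440 rested on TAS1440 replicate 2, without which it was -1.28 (adjusted *P* = 0.00415). *RPL22L1* was 5.45, 5.48 and 5.68 with TAS1440 plus GSI, and none of its differences among these 3 groups passed the test (0.25 ± 0.23 for TAS1440 against DMSO, adjusted *P* = 0.371). These comparisons share libraries with each other and with the contrast that chose the pair.

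The genes next to *RPL22* on chromosome 1 were read in the same libraries, as the 5 genes on each side that have a row in the table. *KCNAB2*, *CHD5* (a chromatin remodeler), *RNF207* (a ubiquitin ligase of the heart), *ICMT* (a methyltransferase of prenylated proteins), *HES3* (a transcription factor of the Hes family) and *GPR153* (an orphan receptor) were each listed at 0 in all 6 COR-L88 libraries labelled *STING* KO. With *RPL22* they form an unbroken run in the order of the table's genes, from 6050987 to 6321158, or 270 kb. *HES3* carries no information there, since it was also at 0 in all 9 intact COR-L88 libraries, and *CHD5* and *RNF207* did not exceed 0.49 in those. *KCNAB2* ranged from 0.91 to 5.09, *ICMT* from 0.28 to 1.01 and *GPR153* from 0.40 to 1.27 in intact COR-L88 cells, so *ICMT* and *GPR153* were near the floor there. Each of the 6 libraries labelled *STING* KO listed 4568 to 5254 of the 20516 human genes at 0. The share of all genes, or of genes this low in intact cells, at 0 in all 6 is not given here. Just outside the run, *NPHP4* (a protein of the primary cilium) had a median of 1.43 in libraries labelled *STING* KO (lowest 1.27) and 1.73 in intact ones, and *ACOT7* (an acyl-CoA thioesterase) ranged from 2.42 to 2.83 and from 2.63 to 3.37. On the outer left, *AJAP1* was 0.30 to 1.31 against 0.21 to 2.38 and *C1orf174* 3.52 to 3.93 against 3.66 to 4.25. The 5 neighbours of *RPL22L1* on each side showed no such run, with *PHC3*, *PRKCI*, *SKIL* and *TNIK* having group means of 4.57, 4.22, 5.56 and 4.99 in DMSO libraries labelled *STING* KO and 4.48, 4.16, 5.34 and 4.91 in intact ones. DNA was not measured.

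**Figure D2:**
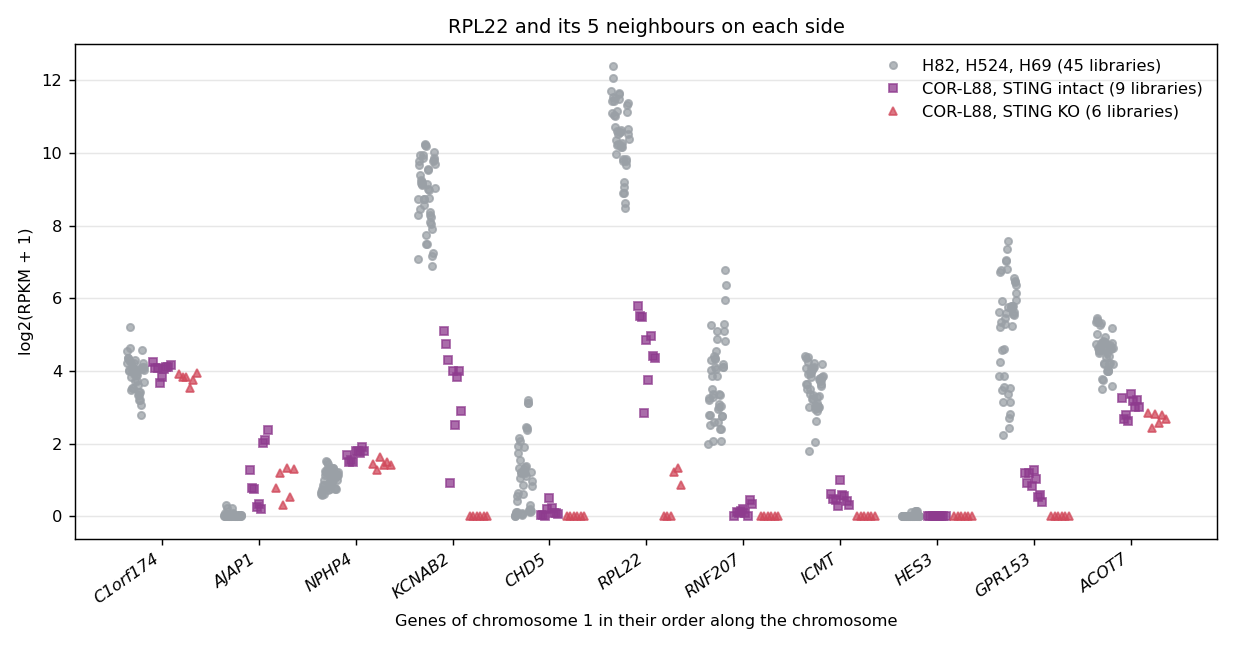
Values as log2(RPKM + 1) of *RPL22* and its 5 neighbours on each side, in their order along the chromosome, in 45 libraries of H82, H524 and H69 (gray circles), 9 COR-L88 libraries with intact *STING* (purple squares) and 6 labelled *STING* KO (red triangles). From *KCNAB2* to *GPR153* the red triangles lie at 0 apart from 3 values of *RPL22* (0.86 to 1.33), while *NPHP4* and *ACOT7* on the edges do not fall to 0. In intact COR-L88 libraries *HES3* was at 0, and *CHD5* and *RNF207* did not exceed 0.49.

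Of the genes in this run, 4 besides *RPL22* also separated intact COR-L88 cells from the other lines, while *CHD5* (0 to 3.21 in the other lines) and *HES3* overlapped. The share of all genes that separate these libraries is not given here, so the count is not read as particular to the run. Between untreated COR-L88 and H82, H524 or H69 cells, 64.3%, 59.1% and 57.0% of all genes were called. *KCNAB2* was 6.90 to 10.24 in the 45 other human libraries, *ICMT* 1.80 to 4.41, *RNF207* 1.99 to 6.77 and *GPR153* 2.23 to 7.57, in each case above all intact COR-L88 libraries. *NPHP4* differed the other way, with COR-L88 higher than parental H82 by 0.90 on the log2 scale (adjusted *P* = 3.98e-05). *ACOT7* was lower in COR-L88 than in H82 by 2.13 (6.32e-06), so the lower values reached beyond the run on that side. *KCNAB2*, which was lower in COR-L88 than in H82 by 3.33 ± 0.35, also fell with TAS1440, by 2.24 ± 0.59 (adjusted *P* = 0.00657), whereas *NPHP4* (0.12 ± 0.11, 0.369) and *ACOT7* (0.15 ± 0.19, 0.532) did not pass the test. In the TAS1440 libraries *KCNAB2* was 0.91, 4.00 and 2.52, in the order of *RPL22* in those libraries (2.85, 4.84 and 3.75). *KCNAB2* was 5.09, 4.75 and 4.31 in DMSO and 3.84, 4.00 and 2.90 with TAS1440 plus GSI.

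**Figure D3:**
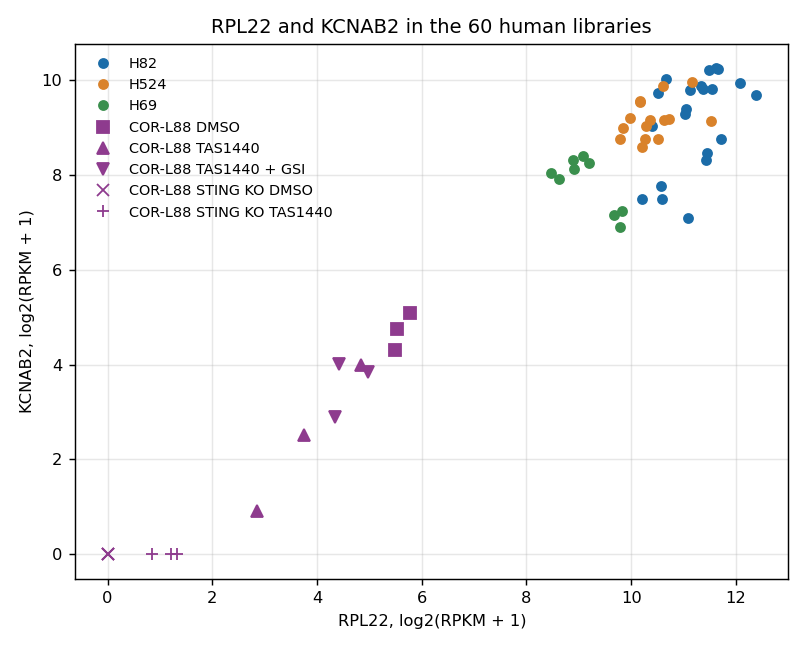
*KCNAB2* (vertical) against *RPL22* (horizontal), both as log2(RPKM + 1), in the 60 human libraries, colored by cell line, with a marker for each COR-L88 group. The COR-L88 points run from 0 for both genes to 5.78 for *RPL22* and 5.09 for *KCNAB2*, apart from those of the other lines.

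Among 15944 genes with a group mean of at least 1 in at least 1 group, *KCNAB2* also had the pattern most like *RPL22* over the 20 human group means (Pearson *r* = 0.976). It was followed by *MRPS27* (0.947), *HDDC2* (0.946), *SYCP2L* (0.944) and *NDUFAF2* (0.942). Without the group that chose the pair, the order was *KCNAB2* (0.967), *AARSD1* (0.955), *SYCP2L* (0.954), *IK* (0.948) and *MRPS27* (0.946) over 19 group means. The genes most like *RPL22L1* were *EXOSC10* (0.917), *PPT1* (0.915), *RLF* (0.908), *LZIC* (0.907) and *AFTPH* (0.907). *RPL22* and *RPL22L1* had an *r* of -0.65 over the 20 means and -0.61 over 19. Over the 15 means left without COR-L88, an alternative chosen after seeing the data, *KCNAB2* fell to rank 2568 with an *r* of 0.58, and the highest were *RPL11* (0.988), *RPL19* (0.974) and *RPL9* (0.974), all ribosomal protein genes. The *r* between *RPL22* and *RPL22L1* was 0.79 over these 15 means, of opposite sign to the value with COR-L88. Group means of 1 line share their cells, and the coefficients are descriptions.

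The 78 other ribosomal protein genes (46 of the large and 32 of the small subunit) gave the frame for the changes of *RPL22*. In H82 *NOTCH1* cells, doxycycline lowered 34 of them and raised none, with a median of -0.60, against 24.9% of all genes called lower and 25.4% called higher (median of all genes 0.00). Among those that fell were *RPS2* (-1.40 ± 0.23) and *RPL23A* (-1.38 ± 0.22). In *REST* KO cells 71 fell and none rose (median -1.07), against 26.2% lower and 26.0% higher, led by *RPS28* (-1.63 ± 0.27) and *RPSA* (-1.61 ± 0.25). In cells labelled *STING* KO 17 fell and none rose (median -0.58), against 16.9% and 20.8%, and this count was 6 to 12 with any 1 library left out and 33 with median-centred libraries. In intact cells the count of 34 was 16 without the *NOTCH1* vector replicate 2 that had no doxycycline, and 22 and 21 without doxycycline-treated replicate 1 and 3. In H69 the direction was opposite, with 62 genes higher and none lower (median 0.71), against 44.1% higher and 38.3% lower of all genes, among them *RPS27A* (1.88 ± 0.22). H524 showed 2 lower, among them *RPSA* (-0.73 ± 0.26), and none higher with *NOTCH1* (median -0.10), against 14.4% and 17.9%.

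*RPL22* stayed inside the range of these genes in every doxycycline comparison. In H82 *NOTCH1* cells it went from 11.54, 12.38 and 12.08 without to 11.06, 11.44 and 11.03 with doxycycline, a change of -0.83 ± 0.20 (adjusted *P* = 0.00269), where 50.3% of all genes were called and 26 of the 78 genes had a lower value. *RPL22L1* was 3.73, 5.25 and 4.66 without and 3.66, 4.98 and 3.96 with doxycycline and did not pass the test (-0.34 ± 0.36, adjusted *P* = 0.450). The *RPL22* call of intact cells missed the threshold where the model held only the groups compared (adjusted *P* = 0.0507). In *REST* KO cells *RPL22* went from 11.63, 11.66 and 11.49 to 10.57, 10.58 and 10.21, without overlap (-1.14 ± 0.20, adjusted *P* = 0.000152, 52.2% called). In cells labelled *STING* KO it went from 11.13, 11.33 and 11.37 to 10.66, 10.52 and 10.40, again without overlap (-0.75 ± 0.20, adjusted *P* = 0.00733, 37.8% called). *RPL22L1* lay above all 78 genes in the latter comparison but did not pass the test in either (-0.61 ± 0.36, adjusted *P* = 0.170, and 0.26 ± 0.36, 0.615). The doxycycline response of *RPL22* was not shown to differ with either KO (-0.31 ± 0.29, adjusted *P* = 0.511, 16.6% of genes called, and 0.07 ± 0.29, 0.911, 9.26% called), nor was that of *RPL22L1* (-0.27 ± 0.52, 0.779, and 0.60 ± 0.52, 0.520). The neuroendocrine marker sum fell from 13.14 to 14.45 without to 8.01 to 8.82 with doxycycline, and the sum of 3 fibroblast genes rose from 0.34 to 5.62 to 10.05 to 11.03, in H82 *NOTCH1* cells. Their part in the result was not tested.

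The KO groups of H82 were also compared with intact *NOTCH1* cells with and without doxycycline. *NOTCH1* RNA itself was not matched with doxycycline, being higher than in intact cells by 4.69 ± 0.44 in *REST* KO cells (adjusted *P* = 2.06e-07) and by 2.10 ± 0.44 in cells labelled *STING* KO (0.00113), and its part in the following differences was not tested. Without doxycycline it differed by 0.16 ± 0.44 and 0.77 ± 0.44 (adjusted *P* = 0.867 and 0.181). With doxycycline *RPL22* was lower in *REST* KO cells by 0.72 ± 0.20 (adjusted *P* = 0.0102, 38.4% of genes called) and in cells labelled *STING* KO by 0.65 ± 0.20 (0.0178, 39.2% called). Without doxycycline it did not pass the test in *REST* KO cells (-0.41 ± 0.20, adjusted *P* = 0.192, 15.2% called) and was lower in cells labelled *STING* KO by 0.73 ± 0.20 (0.0108, 34.6% called). Both calls for cells labelled *STING* KO were lost under quantile normalization (-0.32, adjusted *P* = 0.0933, and -0.21, 0.310). They were also lost without intact replicate 2 (with doxycycline -0.52, adjusted *P* = 0.0853, without doxycycline -0.53, 0.0673), without labelled replicate 3 with doxycycline (-0.59, 0.0664) and without labelled replicate 1 without doxycycline (-0.65, 0.0515). The *REST* KO call with doxycycline was lost without intact replicate 2 (-0.59, adjusted *P* = 0.0528). *RPL22L1* had the larger shift there. Its values in cells labelled *STING* KO were 2.78, 2.17 and 2.92 without and 2.81, 2.89 and 2.93 with doxycycline, below every library of intact *NOTCH1* cells under the same condition. The differences were -1.92 ± 0.36 without doxycycline (adjusted *P* = 0.000635) and -1.32 ± 0.36 with it (0.00825), and the second lost its call without intact replicate 2 (-0.93, adjusted *P* = 0.0641). The median of the other ribosomal protein genes was -0.80 and -0.76 in these comparisons, with 1 and 16 of the 78 below *RPL22L1*. In *REST* KO cells *RPL22L1* did not pass the test (-0.42 ± 0.36 with and -0.15 ± 0.36 without doxycycline, adjusted *P* = 0.394 and 0.844). The *NOTCH1* vector without doxycycline did not pass against parental H82 cells for *RPL22* (0.59 ± 0.20, adjusted *P* = 0.0622) or *RPL22L1* (0.33 ± 0.36, 0.613), with 13.7% of genes called.

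In H524 neither gene passed the test in any comparison. *RPL22* was 9.99, 11.16 and 10.61 in *NOTCH1* cells without and 10.21, 10.26 and 10.51 with doxycycline (-0.26 ± 0.31, adjusted *P* = 0.576, 32.3% of genes called). *RPL22L1* was 2.75, 3.68 and 2.22 without and 2.99, 2.98 and 3.08 with doxycycline (0.13 ± 0.46, adjusted *P* = 0.860). In *REST* vector cells *RPL22* was 10.63, 10.16 and 10.16 without and 10.29, 9.78 and 9.85 with doxycycline, where only 2.83% of genes were called (-0.35 ± 0.31, adjusted *P* = 0.616). *RPL22L1* was 3.90, 3.49 and 3.53 without and 3.48, 2.63 and 2.90 with doxycycline, with no overlap and no call (-0.64 ± 0.46, adjusted *P* = 0.508). Of the other ribosomal protein genes, 1 (*RPL23*, 2.11 ± 0.50) rose with *REST* and none fell. Between *NOTCH1* and *REST* cells with doxycycline the differences were 0.35 ± 0.31 for *RPL22* (adjusted *P* = 0.388) and 0.02 ± 0.46 for *RPL22L1* (0.982), with 42.8% of genes called. The responses to doxycycline of the 2 vectors were not shown to differ (0.09 ± 0.44 for *RPL22*, adjusted *P* = 0.915, and 0.77 ± 0.65 for *RPL22L1*, 0.455), with 19.1% called. Against parental cells, the *NOTCH1* vector without doxycycline gave -0.28 ± 0.31 and -0.97 ± 0.46 (26.6% called) and the *REST* vector -0.55 ± 0.31 and -0.21 ± 0.46 (0.300% called) for *RPL22* and *RPL22L1*.

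H69 moved the other way from H82. *RPL22* was 9.20, 8.47 and 8.62 without and 9.68, 9.79 and 9.82 with doxycycline, without overlap, a rise of 1.00 ± 0.17 (adjusted *P* = 0.000471). *RPL22L1* was 3.02, 1.82 and 2.30 without and 3.21, 2.96 and 3.13 with doxycycline, a rise of 0.72 ± 0.26 (0.0294) with overlapping groups, whose call was lost where the model held only the groups compared (adjusted *P* = 0.0570) and without *NOTCH1* vector replicate 2 or 3, or doxycycline replicate 1 or 3 (0.0673 to 0.0797). Since 82.3% of all genes were called in this comparison, a call of either gene is close to the background. The *RPL22* response of H69 exceeded that of H82 by 1.83 ± 0.39 (adjusted *P* = 0.000897, 58.3% of genes called) and that of H524 by 1.26 ± 0.39 (0.0135, 51.9% called), while H524 and H82 did not pass the test (0.57 ± 0.39, 0.312, 26.5% called). The other ribosomal protein genes differed alike, with a median of 1.25 between H69 and H82. For *RPL22L1* no pair of lines passed (1.07 ± 0.61, 0.59 ± 0.61 and 0.47 ± 0.61, adjusted *P* = 0.144, 0.432 and 0.614). The H69 vector without doxycycline did not pass against parental cells (-0.19 ± 0.17 and 0.18 ± 0.26, 27.4% called). In H69 the sum of 3 fibroblast genes rose from 0.74 to 2.17 without to 13.73 to 13.80 with doxycycline, and its part in the result was not tested.

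COR-L88 was the line in which *RPL22* left the range of the family. TAS1440 lowered 45 of the 78 genes and raised 1 (*RPL12*, 0.78 ± 0.13), with a median of -0.43, against 27.0% of all genes lower and 32.2% higher. The count of 45 was 27 without DMSO replicate 3, and 23 and 28 without TAS1440 replicate 2 and 3. With the same treatment 7 of 8 neuroendocrine genes were lower (their sum 10.66 to 10.85 in DMSO and 9.20 to 9.48 with TAS1440) and all 3 non-neuroendocrine genes tested of 4 were higher (sum 2.03 to 2.31 and 7.95 to 8.30), and their part in the result was not tested. Those that fell furthest, *RPL14* (-0.80 ± 0.23), *RPL30* (-0.77 ± 0.15) and *RPL10* (-0.77 ± 0.15), stayed above *RPL22* (-1.79), so none of the 78 lay below it. *RPL22L1* (0.25) had 76 of 78 below it. Between cells labelled *STING* KO and intact cells with TAS1440, 8 of the 78 were higher and 1 lower (median 0.04, lowest value -0.48), against 8.79% and 19.8% of all genes, while *RPL22* was at -2.68. The count of 8 was 2 without TAS1440 replicate 2 or 3 or labelled replicate 3, 4 without labelled replicate 1, and 15 without TAS1440 replicate 1. In untreated cells 71 of the 78 were higher in H82 than in COR-L88 and none lower (median 1.70, highest 3.41), against 35.3% and 29.0% of all genes, and *RPL22* lay above all of them with 5.81. *RPL22L1* lay below all of them in each of the 3 comparisons with COR-L88.

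**Figure D4:**
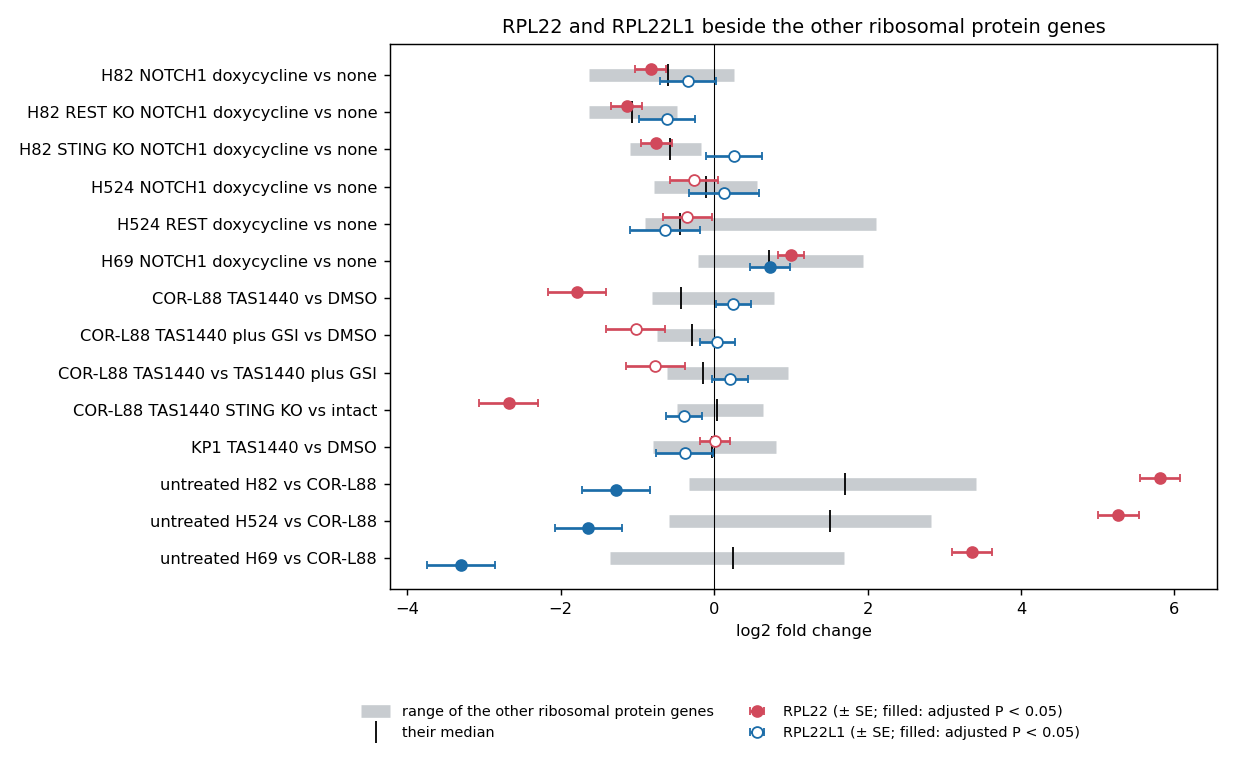
Log2 fold change (horizontal) of *RPL22* (red) and *RPL22L1* (blue) with the SE in 14 comparisons, beside the range (gray bar) and median (black tick) of the other ribosomal protein genes, 78 in the human lines and 72 in KP1; filled points passed an adjusted *P* of 0.05. *RPL22* lies inside the gray bar in H82, H524, H69 and KP1 and outside it in every comparison with COR-L88.

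In KP1 neither gene passed the test in any comparison. *Rpl22* was 4.78, 4.86 and 4.51 in DMSO, 4.70, 5.03 and 4.46 with TAS1440 and 4.90, 4.79 and 4.65 with TAS1440 plus GSI. *Rpl22l1* was 5.99, 5.99 and 5.98 in DMSO, 5.63, 5.32 and 5.86 with TAS1440 and 4.81, 5.86 and 6.52 with TAS1440 plus GSI. All TAS1440 libraries lay below DMSO for *Rpl22l1*, by 0.38 ± 0.37, without passing the test (adjusted *P* = 0.455), and *Rpl22* differed by 0.02 ± 0.19 (0.958), with 36.7% of genes called. TAS1440 against TAS1440 plus GSI (-0.05 ± 0.19 and -0.13 ± 0.37, 32.0% called) and TAS1440 plus GSI against DMSO (0.07 ± 0.19 and -0.26 ± 0.37, 1.97% called) did not pass either. Of 72 other ribosomal protein genes tested, 3 were higher and 1 lower with TAS1440, against 18.2% and 18.5% of all genes. The mouse table also lists the pseudogene *Rpl22-ps1* on chromosome X, at 0 to 0.87.

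The balance within a library, *RPL22L1* minus *RPL22*, was compared by a two-sided exact permutation test, which cannot go below 0.1 with 3 libraries against 3. Only the change in this balance is read, not its level. In COR-L88 it was higher with TAS1440 by 2.04 (exact *P* = 0.1) and was higher by 2.28 in cells labelled *STING* KO than in intact cells with TAS1440 (exact *P* = 0.1). TAS1440 against TAS1440 plus GSI gave 0.97 (exact *P* = 0.5). With doxycycline it differed in H82 by 0.48 in intact cells (exact *P* = 0.2), by 0.53 in *REST* KO cells (0.2) and by 1.01 in cells labelled *STING* KO (0.1). In H524 it differed by 0.39 with *NOTCH1* (exact *P* = 0.3) and by -0.29 with *REST* (0.1), and in H69 by -0.28 (0.2). In KP1 it differed by -0.40 with TAS1440 against DMSO (exact *P* = 0.3) and by -0.08 against TAS1440 plus GSI (0.9). None of these exact tests could pass 0.05 in this design.

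The other ribosomal protein paralogs were read beside *RPL22L1*, with 5 tested of 7 in COR-L88. With TAS1440 against DMSO neither they nor *RPL22L1* passed the test in limma, where 59.2% of all genes did, and their differences ran from -0.34 to 0.24. In cells labelled *STING* KO with TAS1440 1 was lower than in intact cells (*RPL39L*, -0.50 ± 0.15, adjusted *P* = 0.0329), against 28.6% of all genes called. Parental H82 cells were higher than COR-L88 for 3 of the 5 (*RPL26L1*, *RPL7L1* and *RPS27L*, by 1.72, 1.23 and 0.86) and lower for none, where 35.3% of all genes were higher and 29.0% lower. H524 was higher for 1 and lower for 1 (59.1% of all genes called), and H69 higher for 2 and lower for 1 (57.0%). The paralog lower in both was *RPL39L* (-1.23 ± 0.31, adjusted *P* = 0.00470, and -4.39 ± 0.31, 2.44e-07), so *RPL22L1* was not the only paralog with a higher level in COR-L88 than in these lines. In H69 doxycycline raised 4 of 5 paralogs and lowered 1, where 82.3% of all genes were called. Of 12 genes of the p53 pathway, into which free ribosomal proteins feed through MDM2, 11 were tested in COR-L88. With 59.2% of all genes called, TAS1440 raised 4 of them, among them *CDKN1A* (3.25 ± 0.32), an inhibitor of the cell cycle, and *FAS* (3.15 ± 0.31), a death receptor, and lowered *MDM4* (-0.79 ± 0.24) and *MDM2* (-0.60 ± 0.13). Between cells labelled *STING* KO and intact cells with TAS1440, *BBC3*, *MDM4* and *MDM2* were higher (0.85, 0.72 and 0.48) and *FAS* and *RRM2B* lower (by 1.76 and 0.93), with 28.6% of all genes called. In H82 *NOTCH1* cells doxycycline raised 5 of the 12 genes and lowered 2 (50.3% of all genes called), in H69 it raised 4 and lowered 5 of 11 (82.3%), and in H524 it raised 6 and lowered none of 12 (32.3%). *CDKN1A* rose in H82 (3.35 ± 0.27) and fell in H69 (-2.09 ± 0.23). In KP1, 1 of 7 rose with TAS1440 (*Gdf15*, 2.37 ± 0.76), where 36.7% of all genes were called.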

How the data were processed

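The authors made the files from polyA RNA (stranded paired-end libraries) with Cutadapt, STAR (hg19), RSEM and TMM scaling in edgeR, and deposited log2 values of RPKM plus 1, for the human lines and for KP1 in separate tables. Versions, and whether counting used strand, are not given in the sources used here. Every column of sample values was used. Groups followed the labels. Genes that reached a log2 value of 1 in 3 or more libraries of a model were tested with limma 3.58.1 (R 4.3.3), 1 model per line plus models across untreated lines and across *NOTCH1* responses, and Benjamini-Hochberg adjustment ran over all genes tested. The COR-L88 model left out the DMSO libraries labelled *STING* KO, because they chose the pair. Alternatives were another pseudocount (0.1), no filter, quantile normalization, median centring, only the groups compared, and leaving out each library. Positions came from the GENCODE 44 annotation on GRCh37. The methods were tested on simulated data. The members and gene lists were chosen with earlier results of these data known. Named ribosomal protein, paralog and p53 genes were those with the largest called changes of each list, up to 3 in each direction. Some of them are not reported here. P values measure the spread between libraries only.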

Additional observations from a re-analysis of the deposited data

Results flagged for a closer look

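The response of *RPL22* to doxycycline differed between lines that carry the same *NOTCH1* vector. It was higher in H69 than in H82 by 1.83 ± 0.39 (SE, limma interaction, adjusted *P* = 0.000897) and higher in H69 than in H524 by 1.26 ± 0.39 (0.0135) on the log2 scale, each with 3 libraries a group. *RPL22* rose in H69 and fell in H82, and 69 and 66 of the 78 other ribosomal protein genes had a smaller difference in these comparisons.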

How the results depend on the processing

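In this section *STING* KO, as the name of a comparison or of cells, stands for the label only. The lower *RPL22* of COR-L88 with TAS1440 (against DMSO, and in cells labelled *STING* KO against intact cells) and the H69 and *REST* KO H82 responses to doxycycline kept their direction and their call under every alternative run. Where the model held only the groups compared, *RPL22* lost its call for H82 doxycycline (-0.83) and for H82 cells labelled *STING* KO without doxycycline (-0.73, adjusted *P* = 0.0584). In such models *RPL22L1* lost that for H69 doxycycline (0.72). Calls were gained there by *RPL22L1* in *REST* KO cells with doxycycline (-0.61, 0.0443) and by *RPL22* for TAS1440 plus GSI against DMSO (-1.02). The last also passed the threshold with the DMSO libraries labelled *STING* KO in the model (-1.02). Those libraries chose the pair and, all at 0, shrink the pooled spread, so that call carries no weight. Quantile normalization removed the *RPL22* calls for *STING* KO H82 cells (-0.32 and -0.21), called H82 against H524 (0.52, 0.0188), and turned uncalled values to -0.11 (*RPL22*, *STING* KO change of response), -0.074 (*RPL22*, H524 *NOTCH1* minus *REST*), -0.00803 (*RPL22L1*, H524 *NOTCH1*), -0.00600 (*RPL22L1*, H524 *NOTCH1* against *REST*) and -0.19 (*Rpl22*, KP1 TAS1440). Median centring turned the last pair to -0.013 and -0.033. The cause was not tested. Counts of the other ribosomal protein genes moved with quantile normalization to 1 higher (H82 doxycycline), 6 lower (H524 *NOTCH1*), 2 lower (H69), 14 higher (COR-L88 *STING* KO), 1 lower (H82 against COR-L88), and 1 higher and 3 lower (KP1), with median centring to 33 lower (H82 *STING* KO), 0 lower (COR-L88 *STING* KO) and 3 lower (KP1), without a filter to 1 lower (H524 *NOTCH1*), 0 lower (COR-L88 *STING* KO) and 2 lower (KP1), and with a pseudocount of 0.1 to 2 lower (KP1).

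Leaving out each library in turn gave ranges that crossed the threshold or 0 for several values. For *RPL22* these were 0.40 to 0.82 (H82 vector against parental), -0.79 to -0.59 and -0.64 to -0.22 (*REST* KO against intact H82 cells with and without doxycycline), -0.72 to -0.52 and -0.96 to -0.53 (*STING* KO, likewise), -0.12 to 0.30 (*STING* KO change of response), -0.57 to 0.040 (H524 vector), -0.56 to 0.030 (H524 doxycycline), -0.21 to 0.38 (H524 *NOTCH1* minus *REST*), -0.41 to -0.048 (H69 vector), -1.28 to -0.28 (TAS1440 against TAS1440 plus GSI) and 0.29 to 0.86 (H82 against H524, called without H524 parental replicate 2). For *RPL22L1* they were -0.019 to 0.74 (H82 vector), -0.75 to 0.0053 (H82 doxycycline), -0.56 to 0.20 (*REST* KO without doxycycline), -1.59 to -0.93 (*STING* KO with doxycycline), -0.62 to 0.14 (*REST* KO change of response), -1.39 to -0.35 (H524 vector), -0.20 to 0.53 (H524 doxycycline), -0.63 to 0.41 (H524 *REST* vector), -0.17 to 0.25 (H524 *NOTCH1* against *REST*), -0.14 to 0.47 (H69 vector), 0.44 to 1.05 (H69 doxycycline), -0.036 to 0.51 (TAS1440 against DMSO), -0.078 to 0.47 (against TAS1440 plus GSI), -0.11 to 0.12 (TAS1440 plus GSI against DMSO), -0.65 to -0.11 (COR-L88 *STING* KO), 0.72 to 1.48 (H69 minus H82 response), -0.060 to 0.98 (H82 against H524) and -1.55 to -1.10 (H82 against COR-L88). In KP1, *Rpl22* ran from -0.13 to 0.15, -0.20 to 0.086 and -0.037 to 0.14 (TAS1440 against DMSO, against TAS1440 plus GSI, and TAS1440 plus GSI against DMSO), *Rpl22l1* from -0.59 to 0.27 and -0.65 to 0.21 (the last pair of these), and the balance against TAS1440 plus GSI from -0.60 to 0.39. Ribosomal protein genes called lower ran from 16 to 49 (H82), 6 to 12 (H82 *STING* KO), 0 to 1 (H524 and H69), 23 to 62 (COR-L88 TAS1440), 0 to 3 (COR-L88 *STING* KO) and 0 to 2 (KP1), and called higher from 2 to 15 (COR-L88 *STING* KO) and 1 to 2 (KP1). No paired analysis was possible because the replicate numbers only follow the order of deposition. Read depth is not known, so a value listed at 0 carries no upper limit.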
